A study of Mus musculus with 6 samples.

Results

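Both insulin genes of the mouse, Ins1 and Ins2, and Iapp, the gene of the beta cell hormone amylin, were described in pancreatic islets of diabetic and control mice. They were chosen by name as the genes of the beta cell's main secreted hormones, and are 3 of the 44713 genes in the count table. Islets of 3 db/db mice (genotype Lepr-/-, without a working leptin receptor) were compared with islets of 3 db/m mice (labelled as wild type at this gene). All mice were male littermates aged 10 weeks on a normal diet. The labels give the strain as C57BL/6, whereas the study's methods name a BKS line that carries the db allele beside Dock7m. In the notation of that line, db/m reads as a db allele beside a Dock7m allele, unlike the wild-type label. The study calls these mice non-diabetic littermates and does not state their Lepr genotype. Islets were freed from the pancreas by collagenase digestion and a density gradient, and total RNA depleted of ribosomal RNA was sequenced, with 1 library per mouse.

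Insulin lowers blood glucose, and the beta cell makes it as preproinsulin, which is folded, cut by prohormone convertases and stored with zinc in secretory granules. Most mammals have a single insulin gene, but mice and rats have a pair: Ins2 is the ancestral gene with 2 introns, and Ins1 is a retained copy, made from a partly processed transcript, which kept 1 of them. Amylin is stored in the same granules, is released with insulin and slows gastric emptying.

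The deposited counts lay between 15641797 and 20614531 per mouse, and acinar marker genes (digestive enzymes of the exocrine pancreas) held 74.7% to 81.9% of them in db/db mice and 56.4% to 72.7% in db/m mice. The libraries were therefore islet preparations with much exocrine RNA, and the exocrine share moved with the group without overlap. The study, by contrast, describes its sequenced islets as acinar-free, and reports insulin staining in most isolated cells. The part of the exocrine share in the values was not tested beyond the ratios and the alternatives given below. One library stood apart: db/m mouse 1 had the lowest acinar share and 3.75% of its counts in the 2 insulin genes, against 0.605% and 0.649% in the other db/m mice. In bulk RNA of this kind, fewer beta cells and less hormone RNA per beta cell cannot be told apart.

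On the GRCm38 mouse genome, RefSeq places Ins1 at chr19:52264297-52265015 on the plus strand and Ins2 at chr7:142678656-142679726 on the minus strand, with 601 and 583 exonic bases. Iapp lies at chr6:142298425-142303820 on the plus strand with 696 exonic bases, inside the region of Slco1a5 on the opposite strand. Slco1a5, a transporter gene, had 6 to 14 counts per mouse, which is 0.00869% to 0.257% of the Iapp counts in the same mouse. Whether the counting used strand is not given, so reads of these overlapping genes are told apart only as far as exons differ.

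The first set of sequences shows whether reads of the insulin genes can be told apart, since the results turn on their ratio. The coding sequences of Ins1 (327 bases) and Ins2 (333 bases) were the same at 302 of 327 aligned positions (92.4%), with 6 gap positions. The stretch with the most differences lies in the last coding exon of Ins2, at chr19:52264811-52264894 (plus strand) and chr7:142678769-142678858 (minus strand). It codes for part of the C-peptide and, at its end, for the start of insulin's A chain. Capitals mark bases that differ from the other gene or that the other gene lacks:
Ins1 coding bases 188 to 271: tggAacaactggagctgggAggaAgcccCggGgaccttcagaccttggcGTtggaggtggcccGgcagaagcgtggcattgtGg
Ins2 coding bases 188 to 277: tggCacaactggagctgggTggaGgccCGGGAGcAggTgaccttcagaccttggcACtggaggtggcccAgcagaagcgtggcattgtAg
The longest run without a difference is 56 bases and begins at the last base of that stretch, at chr19:52264894-52264949 and chr7:142678714-142678769:
Ins1 bases 271 to 326 and Ins2 bases 277 to 332: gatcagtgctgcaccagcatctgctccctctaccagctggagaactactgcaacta
Of all stretches of 50 bases in the spliced transcripts, 7 of 552 in Ins1 (1.27%) and 7 of 534 in Ins2 (1.31%) occur in both genes. A read of that length from elsewhere in the transcripts carries at least 1 base that names its gene, but how the counting treated reads that match both genes is not given in the sources used here.

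The second set of sequences is the 250 bases before the RefSeq start site, since the levels of factors of the insulin enhancer are described further on. Which start site the islets used was not tested. RefSeq's promoter table for GRCm38.p6 held 2 of the 3 genes, Ins1 (chr19:52264047-52264296, plus strand) and Iapp (chr6:142298175-142298424, plus strand). Capitals mark TAAT on either strand, the core read by homeodomain factors such as Pdx1 and Nkx6-1, and GCCATCTG, an E box of the kind read by Neurod1:
Ins1 promoter: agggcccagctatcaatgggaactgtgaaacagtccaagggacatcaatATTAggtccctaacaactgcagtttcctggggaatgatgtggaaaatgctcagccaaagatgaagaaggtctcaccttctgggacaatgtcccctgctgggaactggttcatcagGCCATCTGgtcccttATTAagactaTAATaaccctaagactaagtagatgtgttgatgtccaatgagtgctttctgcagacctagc
Iapp promoter: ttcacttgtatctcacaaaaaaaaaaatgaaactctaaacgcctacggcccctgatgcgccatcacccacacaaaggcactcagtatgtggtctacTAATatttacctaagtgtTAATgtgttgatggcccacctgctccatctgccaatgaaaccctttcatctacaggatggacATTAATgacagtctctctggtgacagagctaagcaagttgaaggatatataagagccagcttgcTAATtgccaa
TAAT occurs 3 times before Ins1 and 5 times before Iapp, of which 2 overlap on opposite strands, and 54.9% of 32851 promoters of the same length hold it. GCCATCTG begins 86 bases before the RefSeq start site of Ins1 (position -86). It occurs in 1.11% of these promoters, on either strand. The Iapp window does not hold the full string, but it holds CCATCTG, which lacks only the first G. How many promoters hold that shorter string was not counted. The letters TATAA begin at position -63 in Ins1, where they overlap a TAAT, and at position -27 in Iapp. They occur in 22.8% of the promoters, and whether either match works as a TATA box was not tested. These matches describe the letters only, at positions counted from the RefSeq start site.

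Ins1 had the largest difference of the 3 genes, about 7-fold in group means, and was lower in every db/db mouse than in every db/m mouse. Levels are given as CPM, the counts scaled to a common library size, with the sizes corrected by TMM (edgeR's trimmed mean of M values). Ins1 stood at 240, 580 and 554 CPM in db/db mice 1, 2 and 3, and at 6616, 1614 and 1868 CPM in db/m mice 1, 2 and 3. The lowest db/m mouse was thus well above the highest db/db mouse. The means were 458 ± 189 CPM in db/db and 3366 ± 2817 CPM in db/m (SD, n = 3; exact permutation test, two-sided, p = 0.1, the smallest that 3 mice against 3 allow). In edgeR's quasi-likelihood test over 12760 genes the log2 fold change of Ins1 was -2.88 (SE 0.64), which is 7.35-fold lower, with a Benjamini-Hochberg adjusted p of 0.087, above the threshold of 0.05. Of all genes tested, 79 (0.619%) passed that threshold, 17 higher and 62 lower in db/db mice, and Ins1 ranked 219 by p. Groups without overlap were found for 21.1% of all genes, and 12.6% were lower in all db/db mice, as Ins1 was.

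Ins2 supplied most of the insulin RNA in every mouse, and its groups overlapped. It stood at 1770, 4484 and 3886 CPM in db/db mice and at 14909, 4080 and 4815 CPM in db/m mice. The level in db/db mouse 2 was above that of db/m mouse 2, and the distance between the group means, 3380 ± 1426 against 7935 ± 6051 CPM (SD, n = 3), came largely from db/m mouse 1. The log2 fold change was -1.23 (SE 0.61), with an adjusted p of 0.388 in edgeR's test. The exact permutation test gave p = 0.2.

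Iapp also overlapped between the groups. Its levels were 437, 1312 and 761 CPM in db/db mice and 2534, 1536 and 903 CPM in db/m mice, where db/db mouse 2 lay above db/m mouse 3. The means were 836 ± 442 CPM in db/db and 1658 ± 822 CPM in db/m (SD, n = 3; exact permutation test, p = 0.2). The log2 fold change was -0.99 (SE 0.51), with an adjusted p of 0.405 in edgeR's test. An unadjusted p under 0.05 in the lower direction was found for 9.89% of all genes, and among the 3 genes only for Ins1.

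**Figure D1:**
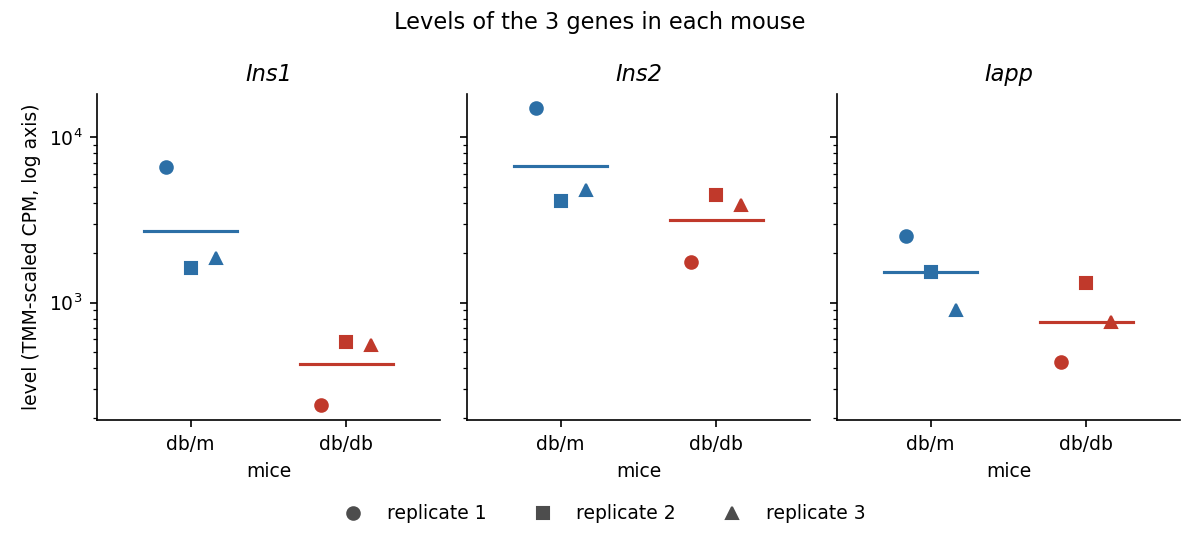
Level of Ins1, Ins2 and Iapp in each mouse (TMM-scaled CPM, log axis); symbols are single mice, 3 per group, and lines are geometric means. The Ins1 levels of db/db mice, 240 to 580, all lie below those of db/m mice, 1614 to 6616, whereas Ins2 and Iapp overlap.

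Without db/m mouse 1 the log2 fold changes were -1.90 for Ins1 (edgeR, adjusted p = 0.116), -0.37 for Ins2 (adjusted p = 0.824) and -0.53 for Iapp (adjusted p = 0.75). DESeq2 gave nearly the same sizes, -2.86, -1.21 and -0.97, but called Ins1 (adjusted p = 2.7e-06) and 4.59% of all genes, with adjusted p-values of 0.148 for Ins2 and 0.238 for Iapp. With the mean level of the acinar markers added as a covariate, the values were -1.27 for Ins1, 0.22 for Ins2 and 0.12 for Iapp. The direction of the latter genes thus turned (edgeR, adjusted p = 0.137, 0.842 and 0.937). This acinar score was 12.54 to 13.40 in db/db mice and 11.19 to 12.52 in db/m mice, without overlap. Group and acinar score therefore cannot be cleanly told apart in that fit.

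**Figure D2:**
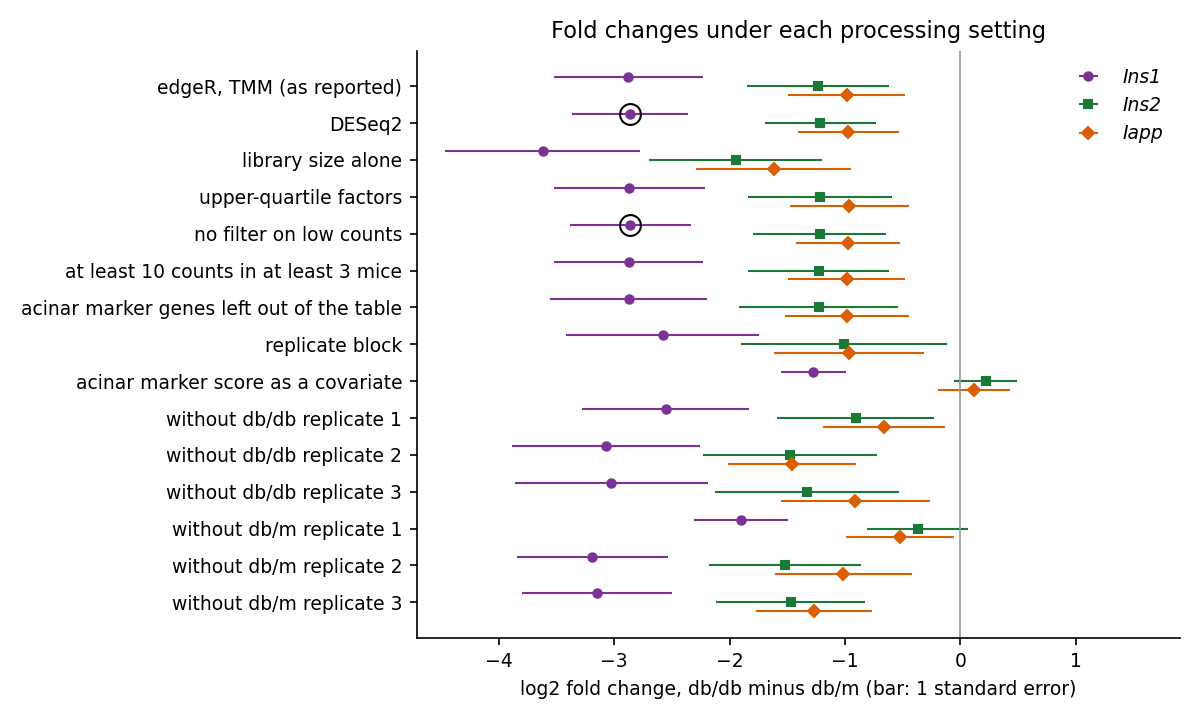
Log2 fold change of db/db against db/m (x axis; bars are 1 standard error) of Ins1, Ins2 and Iapp under each processing setting. Black circles mark an adjusted p under 0.05, reached by Ins1 with DESeq2 and without a filter on low counts. Ins1 stays between -3.62 and -1.27. Once acinar markers enter the fit, Ins2 and Iapp cross 0 but lie within 1 standard error of it.

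As shares of all counts, with 95% Clopper-Pearson intervals that cover counting error alone, Ins1 made up 0.0145% (0.0140% to 0.0150%) in db/db mouse 1 and 1.15% in db/m mouse 1, the lowest and highest of the 6 mice, a 79.5-fold span. The shares of Ins1 were 0.0576% and 0.0509% in the other db/db mice and 0.172% and 0.181% in the other db/m mice. Ins2 ranged from 0.107% to 0.445% in db/db and from 0.434% to 2.60% in db/m, and Iapp from 0.0264% to 0.130% and from 0.0877% to 0.441%. Among the counts outside the acinar marker genes, the Ins1 share was 0.170 ± 0.0788% in db/db and 1.29 ± 1.17% in db/m (SD, n = 3), again without overlap. The other genes overlapped on this scale too, with Ins2 at 1.26 ± 0.60% against 3.04 ± 2.53% and Iapp at 0.313 ± 0.186% against 0.627 ± 0.353% (SD, n = 3). These shares carry no TMM correction, and for how many of all genes the groups lack overlap on this scale was not counted.

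The order of the genes was compared per exonic base, as RPKM, which is CPM divided by the RefSeq exon length in kilobases, without TMM. Ins2 was highest in every mouse, at 1835 to 7632 RPKM in db/db and 7441 to 44544 RPKM in db/m. In each db/db mouse Iapp came next (379, 1870 and 1003 RPKM) and Ins1 last (241, 958 and 846 RPKM). In each db/m mouse the order of these was the other way round, with Ins1 at 19174, 2856 and 3018 RPKM and Iapp at 6341, 2346 and 1260 RPKM. With the longer GENCODE exon lengths (1062, 1312 and 974 bases for Ins1, Ins2 and Iapp) the order was the same except in db/m mouse 2, where Iapp was 1.04 times Ins1.

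The ratio of Ins1 to Ins2 varied little within a group and differed about 3-fold between the groups. Since both genes are read in the same library, this ratio is free of library scaling, and it is free of RNA from cells that express neither gene. It was 0.135, 0.129 and 0.143 counts of Ins1 per count of Ins2 in db/db mice, and 0.444, 0.396 and 0.388 in db/m mice. The highest db/db ratio lay 1.44 log2 units below the lowest db/m ratio, while the mice of one group spanned 0.14 (db/db) and 0.19 (db/m) log2 units. Even db/m mouse 1, with its high insulin share, had nearly the ratio of the other db/m mice. Mean log2 ratios were -2.88 ± 0.07 and -1.29 ± 0.10 (SD, n = 3), a difference of -1.59 or 3.01-fold (exact permutation test, two-sided, p = 0.1, the smallest possible). It stayed between -1.63 and -1.53 when any 1 mouse was left out.

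Put as a share, Ins1 made up 11.9%, 11.5% and 12.5% of the insulin counts in db/db mice and 30.7%, 28.3% and 28.0% in db/m mice. The means were 12.0 ± 0.514% and 29.0 ± 1.5% (SD, n = 3). The widest 95% Clopper-Pearson interval, in db/db mouse 1, was 11.5% to 12.3%. Per exonic base of RefSeq, the Ins1 to Ins2 ratio was 0.126 to 0.138 in db/db and 0.376 to 0.430 in db/m. Of 12759 genes set against Ins2 in the same way (0.5 added to each count), 25.6% had groups without overlap, and 2.36% were lower against Ins2 in all db/db mice, as Ins1 was. When edgeR was rerun with the Ins2 counts as library size, a fit added after the values were seen, the difference was again -1.59, but its standard error, for which that fit shares spread across all genes, was 1.06 (adjusted p = 0.429).

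The ratio of Iapp to Ins2 was 0.247, 0.293 and 0.196 in db/db mice and 0.170, 0.376 and 0.188 in db/m mice, groups that overlap throughout. The mean log2 difference was 0.08 (exact permutation test, p = 0.8), and its sign turned when db/db mouse 2, db/m mouse 1 or db/m mouse 3 was left out. The db/m mice alone spanned 1.15 log2 units, far more than this difference. The ratio of Iapp to Ins1 was 1.82, 2.26 and 1.37 in db/db mice and 0.383, 0.951 and 0.483 in db/m mice. All db/db mice had more Iapp than Ins1 counts and all db/m mice fewer, with a log2 difference of 1.67, or 3.18-fold (exact permutation test, p = 0.1). Of 12759 genes set against Ins1, 88.5% were likewise higher in all db/db mice, so this separation is that of Ins1 and not particular to Iapp. Against the sum of both insulin genes, Iapp overlapped between the groups (0.171 to 0.259 in db/db and 0.118 to 0.270 in db/m, p = 0.4 by the exact permutation test).

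**Figure D3:**
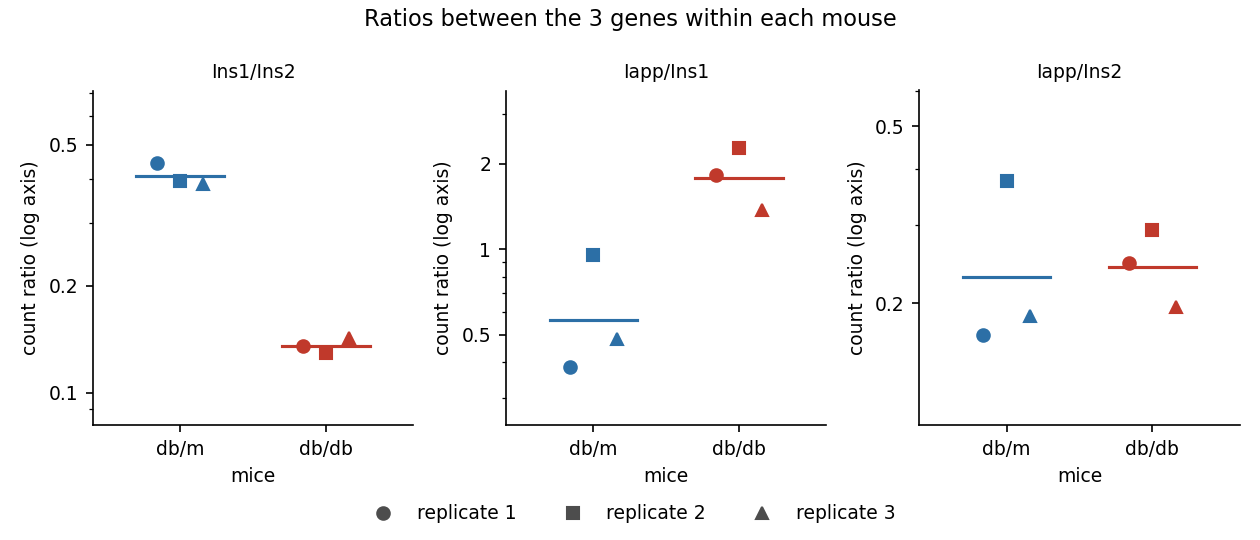
Count ratios Ins1/Ins2, Iapp/Ins1 and Iapp/Ins2 within each mouse (log axis; symbols are single mice, 3 per group; lines are geometric means). The Ins1/Ins2 ratios form tight groups at 0.129 to 0.143 (db/db) and 0.388 to 0.444 (db/m), whereas the Iapp/Ins2 ratios overlap.

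The same genes were then set against hormone RNA of other endocrine cells and against granule genes. Against the summed counts of Gcg, Sst and Ppy, which code for glucagon, somatostatin and pancreatic polypeptide, Ins1 stood at 0.653, 0.767 and 1.40 in db/db mice and at 4.03, 3.89 and 7.30 in db/m mice. These groups did not overlap, and the log2 difference was -2.45, or 5.46-fold (exact permutation test, p = 0.1). Of 12757 genes set against these hormones, 4.23% were lower in all db/db mice. Ins2 stood at 4.82, 5.93 and 9.84 against 9.09, 9.82 and 18.8, where db/db mouse 3 lay above db/m mice 1 and 2 (difference -0.86; exact permutation test, p = 0.3). Iapp stood at 1.19, 1.73 and 1.93 against 1.54, 3.70 and 3.53, where db/m mouse 1 fell among the db/db mice (difference -0.78; exact permutation test, p = 0.3).

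Chga, Chgb, Scg2, Scg3 and Cpe code for granule proteins that all islet endocrine cells share, beta cells included. Their own log2 fold changes in edgeR's fit were -2.10, 0.03, -1.14, -0.93 and -1.09, none past the adjusted threshold. A ratio to these genes thus compares a level with a reference that, apart from Chgb, was itself lower in db/db mice. Against their summed counts Ins1 was 0.801, 0.582 and 0.771 in db/db mice and 2.40, 1.17 and 2.24 in db/m mice, without overlap (log2 difference -1.37; exact permutation test, p = 0.1). Of 12755 genes set against the granule genes, 2.2% were lower in all db/db mice. Ins2 was 5.92, 4.49 and 5.41 against 5.40, 2.95 and 5.77, with a difference of 0.21 (exact permutation test, p = 0.6). Iapp was 1.46, 1.31 and 1.06 against 0.918, 1.11 and 1.08, with a difference of 0.29 (exact permutation test, p = 0.3). The other hormones themselves were higher against the granule genes in db/db mice by 1.07 log2 units, with overlapping groups (exact permutation test, p = 0.2), so that the choice of reference sets the sign for Ins2 and Iapp and not for Ins1. Over the 11 ratios compared, the lowest Benjamini-Hochberg adjusted p of the exact permutation tests was 0.275.

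**Figure D4:**
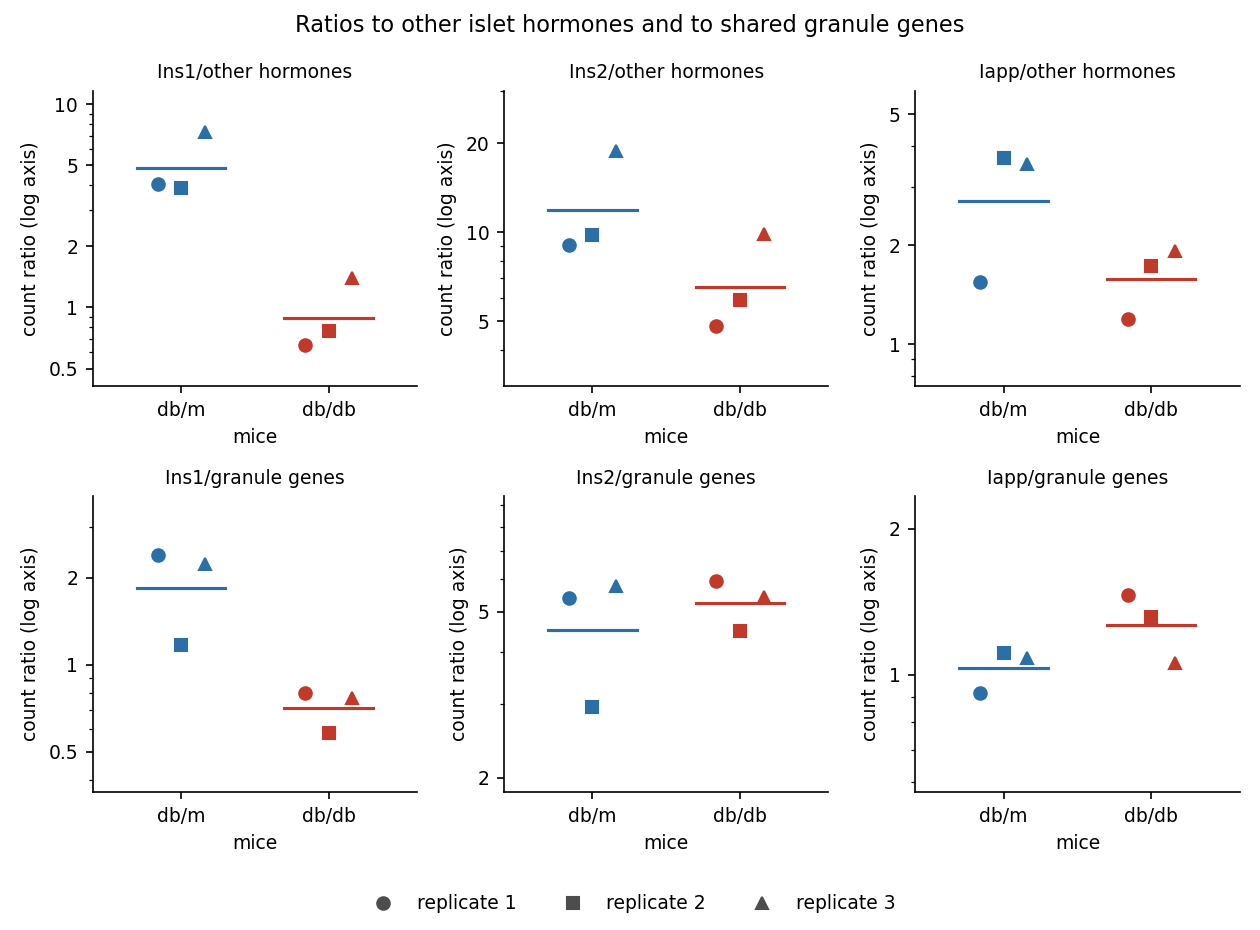
Count ratios of Ins1, Ins2 and Iapp to other islet hormones (Gcg + Sst + Ppy, upper row) and to shared granule genes (Chga + Chgb + Scg2 + Scg3 + Cpe, lower row) within each mouse (log axes; 3 mice per group; lines are geometric means). Ins1 is lower in all db/db mice in both rows, with ratios of 0.653 to 1.40 against 3.89 to 7.30 above and 0.582 to 0.801 against 1.17 to 2.40 below.

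Among 16 factors that bind or control the insulin genes, 13 had a lower and 3 a higher fitted level in db/db mice. In edgeR's test 3 passed the adjusted threshold, all lower: Mafa, which binds the C1 element of the insulin enhancer (log2 fold change -5.70, adjusted p = 0.0489), Nkx6-1, a homeodomain factor of mature beta cells (-3.37, adjusted p = 0.0473), and Neurod1, which binds the E box (-2.83, adjusted p = 0.0349). Mafa had 0, 19 and 2 counts in db/db mice and 1388, 166 and 210 counts in db/m mice. Pax6, a further activator of islet hormone genes, had -2.28 (adjusted p = 0.0866). Unadjusted, 12 of the 16 had p under 0.05 and were lower, and the list's median log2 fold change was -1.59, beside 1262 of 12760 genes lower and a median of -0.00093 over all genes. Hnf4a, a nuclear receptor also used by other epithelia, had the smallest p among the higher ones (0.64, adjusted p = 0.461). The counts over the lists by DESeq2 and without db/m mouse 1 were added after the values were seen. DESeq2 called 8 of the 16, all lower, beside 558 of 14798 genes lower. Without db/m mouse 1 none of the 16 passed the adjusted threshold in edgeR, 9 were lower at an unadjusted p under 0.05, and the median was -1.29, beside 805 of 12984 genes lower at that unadjusted p and 38 lower after adjustment.

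Of 17 genes that fold, cut and store the prohormones, 3 passed the adjusted threshold in edgeR's test, all lower. Pcsk1, the convertase that makes the first cut in proinsulin, had a log2 fold change of -2.77 (adjusted p = 0.0414). Slc30a8, which carries zinc into the insulin granule, had -4.49 (adjusted p = 0.0246), and Sytl4 (granuphilin), which docks granules at the membrane, had -3.61 (adjusted p = 0.0148). Pcsk2, the other convertase, had -1.73 (adjusted p = 0.163), and P4hb, a disulphide isomerase made in all secretory cells, had 0.27 (adjusted p = 0.77). The list's median was -0.93, with 7 of 17 lower at an unadjusted p under 0.05, beside 1262 of 12760 genes. DESeq2 called 4, all lower, beside 558 of 14798 genes lower. Without db/m mouse 1 the same 3 genes passed the adjusted threshold, and the median was -0.47.

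Of 10 beta cell markers, 4 passed the adjusted threshold in edgeR's test and were lower: Mafa, Nkx6-1, Slc30a8 and Slc2a2, the glucose transporter GLUT2 (log2 fold change -4.33, adjusted p = 0.0315). The median was -3.07, and 9 of 10 were lower at an unadjusted p under 0.05, beside 1262 of 12760 genes. Their summed level, without TMM, was 485 to 634 CPM in db/db mice and 1123 to 3430 CPM in db/m mice. Ero1lb (log2 fold change -0.29) made up most of this sum in db/db mice. DESeq2 called 8 of the 10, all lower, beside 558 of 14798 genes lower. Mafa, Nkx6-1, Pdx1, Slc30a8 and Ero1lb are also in the lists described above, so these lists are not independent. Without db/m mouse 1, Slc2a2 and Slc30a8 passed in edgeR's test and the median was -2.42. Ins1 (-2.88) lay near the median of these markers, whereas Ins2 (-1.23) and Iapp (-0.99) lay nearer 0, values given side by side without a test.

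Markers of the other islet cells did not pass. None of the 4 other hormone genes tested (Gcg, Sst, Ppy and Pyy) had an adjusted or unadjusted p under 0.05 in edgeR's test, and DESeq2 called none. Their log2 fold changes ran from -0.93 for Ppy to -0.51 for Gcg. The median of -0.66 turned to 0.81 without db/m mouse 1. In that fit 2 of 4 were higher at an unadjusted p under 0.05, beside 599 of 12984 genes. Alpha, delta and PP cell markers together had a median of -0.83, which turned to 0.17 without db/m mouse 1. Their summed level, without TMM, was 240 to 822 CPM in db/db mice and 284 to 3167 CPM in db/m mice. Of 32 acinar markers, 31 had a higher fitted level in db/db mice, 2 of them past the adjusted threshold in edgeR's test (Prss3 at 3.50, adjusted p = 0.0143, and Prss1 at 3.10, adjusted p = 0.0178, both trypsinogens of a family with near-identical copies), and the median was 0.71. DESeq2 called 5 acinar markers, all higher, beside 121 of 14798 genes higher. Medians were 0.53 for 7 duct, -0.47 for 7 endothelial, 1.33 for 6 stromal and 0.65 for 5 leukocyte markers, with overlapping summed levels. None of these passed the adjusted threshold in edgeR's test. At an unadjusted p under 0.05, 2 duct, 1 stromal and 1 leukocyte marker were higher, beside 643 of 12760 genes. Lower at that p were 1 duct and 1 endothelial marker, beside 1262 of 12760 genes. DESeq2 called 1, the stromal gene Lum (higher). Without db/m mouse 1 the stromal median was 2.97. In edgeR's test 3 collagen genes, Col1a1, Col1a2 and Col3a1, then passed and were higher, beside 14 of 12984 genes. The leukocyte median was then 2.90, with 3 of 5 higher at an unadjusted p under 0.05, beside 599 of 12984 genes. The endothelial median was 0.0024 and the duct median 0.23. Their part in the values of the 3 hormone genes was not tested.

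**Figure D5:**
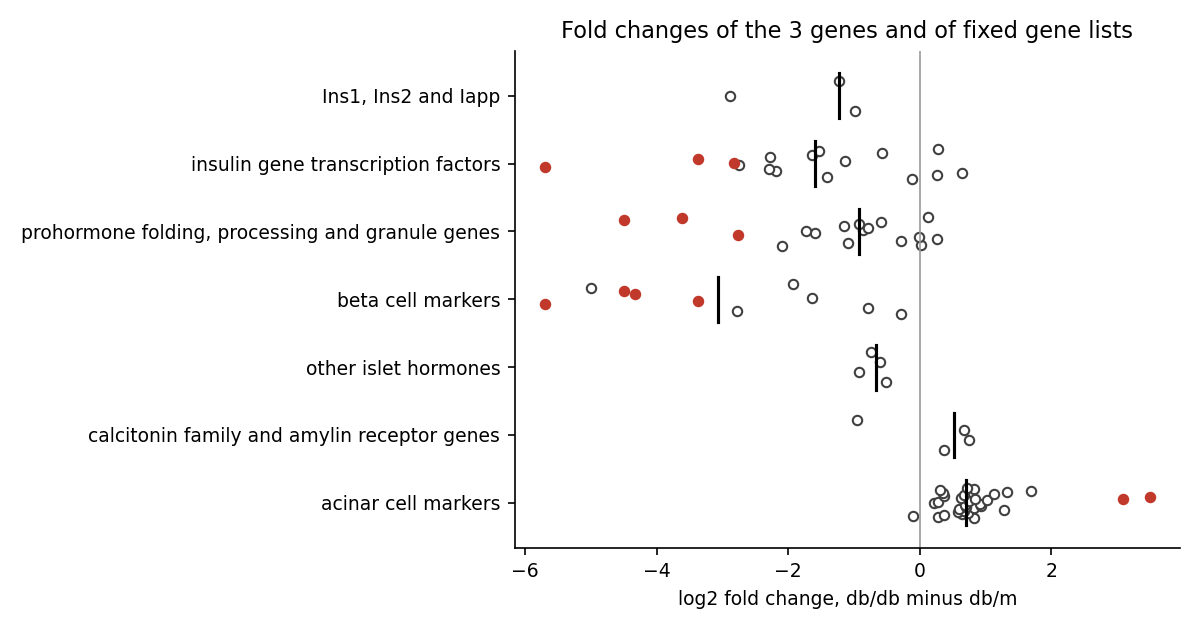
Log2 fold change of db/db against db/m (x axis) for Ins1, Ins2 and Iapp and for the genes of 6 lists; each point is a gene, red points have an adjusted p under 0.05 in edgeR's test, and bars are medians. The beta cell markers have a median of -3.07, the other islet hormones -0.66 and the acinar markers 0.71.

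Relatives of the 3 genes had few counts. Of 7 other members of the insulin and relaxin superfamily, Igf1 alone passed the filter on low counts (log2 fold change 0.31, adjusted p = 0.727 in edgeR's test), and Rln1, Rln3 and Insl5 had no count in any mouse. Igf2, a growth factor gene, had 2, 6 and 2 counts in db/db mice and 96, 41 and 7 counts in db/m mice, and DESeq2 called it lower. Of 9 genes of the calcitonin family and its receptors, to which amylin belongs, 4 were tested and none passed in either direction, at the adjusted threshold or at an unadjusted p under 0.05 in edgeR's test, or in DESeq2. Calcr, the core of the amylin receptor, and Calcb had 0 counts in all 6 mice. Ramp1, a partner that turns the calcitonin receptor into an amylin receptor, was at 19.3 ± 3.42 CPM in db/db mice and 12.2 ± 6.13 CPM in db/m mice (SD, n = 3; adjusted p = 0.443 in edgeR's test).

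Genes whose levels followed each hormone gene most closely were listed by Pearson's r of log2(TMM CPM + 1) over the 6 mice, among 11555 genes with a mean of at least 1 CPM. With 6 points from the same libraries and so many genes, values near 1 are easily reached, and they are given as a description. The nearest to Ins1 were Frmd5 (r = 0.999), E130119H08, Rian, Fhod3 and Phactr1 (r = 0.991), most of them at low levels. The nearest to Ins2 were Shc1 (r = 0.997), 1110051M20Rik, Akap6, Msh5 and Pkm (r = 0.995), and the nearest to Iapp were Rgs9 (r = 0.996), Cap1, Lrp11, Slc4a3 and Scaf1 (r = 0.993). The 3 hormone genes were less like each other, at 0.918 for Ins1 and Ins2, 0.896 for Ins2 and Iapp, and 0.858 for Ins1 and Iapp. Without db/m mouse 1 these were 0.793, 0.811 and 0.710.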

How the data were processed

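RNA-seq of islets from 3 db/db and 3 db/m mice was analysed. The authors deposited raw read counts per gene symbol, with no normalization. The study's methods name TopHat, whereas the submitters' processing notes name HISAT2 2.0.4 and mm10; the counting program, annotation and use of strand are not given in the sources used here. Counts were fitted on the whole table in R 4.3.3 with edgeR 4.0.16 (filterByExpr defaults, TMM, quasi-likelihood F-test, Benjamini-Hochberg adjustment over 12760 genes, threshold 0.05). The fit was tested on simulated data. For ratios and shares, group means of the single mice were tested by exact permutation (two-sided) with Python 3.11.15 and scipy 1.17.1. Alternatives were DESeq2 1.42.0, other scaling and filters, a replicate block, an acinar score covariate and leaving out each mouse. Library totals were 15641797 to 20614531 counts. Sequences and positions came from RefSeq on GRCm38.p6, which is mm10. From each fixed list, genes past the adjusted threshold in edgeR's test were named. Some with the smallest p in each direction, and others that the text refers to, were named beside them. From the likeness ranking, the 5 nearest genes were named. The 3 genes and all lists were chosen with earlier results of these data known.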

Additional observations from a re-analysis of the deposited data

How the results depend on the processing

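The adjusted p of Ins1 stayed above 0.05 under 12 of 14 alternatives; it passed with DESeq2 (log2 fold change -2.86) and without a filter on low counts (-2.86, adjusted p = 8.2e-05 in edgeR). Its direction was lower under all 14. Ins2 and Iapp turned to 0.22 and 0.12 once the acinar marker score entered the fit (adjusted p = 0.842 and 0.937 in edgeR). They kept their direction under the other 13. Leaving out 1 mouse gave -3.19 to -1.90 for Ins1, -1.52 to -0.37 for Ins2 and -1.46 to -0.53 for Iapp, in each case nearest 0 without db/m mouse 1. With library size alone the values were -3.62, -1.95 and -1.62, and the median over all genes was -0.59. The count of genes past the threshold, 79, became 679 with DESeq2, 888 without a filter, 52 with upper-quartile factors, 44 with the acinar score, 21 with library size alone and 10 to 333 without 1 mouse.

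The replicate numbers pair no mice in the labels, and same-numbered mice did not deviate together (correlations -0.53, -0.20 and -0.32); with the replicate block, 16 genes passed and Ins1 had -2.58 (adjusted p = 0.406 in edgeR). The Ins1/Ins2, Iapp/Ins1, Ins1/hormone and Ins1/granule ratios kept their direction under every alternative run. Without 1 mouse, Iapp/Ins2 ranged from -0.14 to 0.44 and Ins2 against the granule genes from -0.091 to 0.39, so their signs turned. In both cases the cause was not tested. The design of 3 mice a group limits every exact test here to p = 0.1, and 2 against 3 to 0.2. Depth is no limit for the 3 hormone genes, whose lowest count was 2987.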
